A study of Mus musculus with 2 samples.

Results

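A gene can make several mRNAs from 1 locus by starting at another promoter, joining other exons or ending at another polyadenylation site. A gene can therefore keep its total mRNA level while the mixture of its transcripts changes, and the forms may encode different proteins or only different ends. This account describes the autosomal genes whose main RefSeq transcript was a different one in pre-pro-B and in pro-B cells. The members were chosen by measured values. Protein-coding RefSeq transcripts on chromosomes 1 to 19 were grouped by gene, and a gene could have switched when it had 2 or more listed transcripts and a summed level of at least 10 FPKM (fragment number divided by transcript length and by library depth) in both libraries. It was counted as switching when 1 transcript held at least 60% of that sum in pre-pro-B cells and another held at least 60% in pro-B cells. Of 19289 autosomal genes with a named protein-coding transcript, 3592 had several transcripts, 1107 of these could have switched, and 30 switched, which is 2.71%. The most abundant transcript differed at any share in 143 of the 1107 genes, which is 12.9%. The transcript that led in pre-pro-B cells is called the pre-pro-B form here, and the other the pro-B form.

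The RNA came from 1 library of Ebf1 -/- pre-pro-B cells and 1 library of Rag2 -/- pro-B cells, both of C57BL/6 background and both grown on OP-9 stromal cells, a feeder line. Ebf1 is a transcription factor that B lineage specification needs, and Rag2 is part of the recombinase that rearranges immunoglobulin genes, so cells without either stop at a defined stage. The pre-pro-B culture received IL-7 at 5 ng/mL with Scf and Flt3l at 10 ng/mL each, and the pro-B culture received IL-7 at 5 ng/mL alone. The cells also differ in origin, female embryonic liver for pre-pro-B and male adult bone marrow for pro-B. Stage, genotype, sex, age, tissue and cytokines therefore cannot be told apart in any value below. With 1 library per cell type no difference has a replicate check, and no test was made. Fewer cells of a kind and less RNA per cell cannot be told apart either.

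The libraries matched their labels by markers of the stage. The progenitor genes Cd34, Flt3, Kit, Ly6a and Satb1 were at 13.6 to 534 FPKM in pre-pro-B and 0.377 to 1.99 FPKM in pro-B. The B lineage genes Cd79a, Pax5, Vpreb1 and Igll1 were at 0.200 to 1.17 FPKM in pre-pro-B and 135 to 798 FPKM in pro-B. Of the targeted genes, Ebf1 was listed at 64.0 FPKM in pre-pro-B and 273 FPKM in pro-B, and Rag2 at 34.5 and 22.9 FPKM. These are values over whole transcripts, so they do not check the deleted parts. The 6 stromal genes summed to 19.4 FPKM in pre-pro-B, of which Pdgfrb made 15.9, and to 12.8 FPKM in pro-B, where Pdgfrb was at 0.377. The others, Col1a1, Col1a2, Col3a1, Fn1 and Sparc, were each higher in pro-B, at 0.207 to 1.16 FPKM in pre-pro-B and 0.522 to 5.16 FPKM in pro-B. Of the 4 myeloid genes, Mpo was at 35.7 FPKM in pre-pro-B and 0.122 in pro-B, and Lyz2 at 5.39 and 0 FPKM. Csf1r was at 0.170 and 0 FPKM, and Elane was listed at 0 in both. Their part in the results below was not tested.

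In most of the 30 genes both forms differed between the libraries, in opposite directions. In 21 genes the pro-B library held the pre-pro-B form at a level lower by 2-fold or more and the pro-B form at a level higher by 2-fold or more. In 4 genes, Cmah, Fabp5, Kdm4c and Tapbp, only the pre-pro-B form differed by that much. In 5 genes, G2e3, Polr2m, Sypl, U2af1 and Wrn, only the pro-B form did. Over all 1107 genes, the leading transcript of pre-pro-B was at least 2-fold lower in pro-B in 14.2%, and the leading transcript of pro-B at least 2-fold higher in 13.1%. The rule rests on the same FPKM, so nothing is read from these counts beside the background. The median share of the pre-pro-B form was 74.2% in pre-pro-B and 25.8% in pro-B, and that of the pro-B form 15.5% and 71.7%. The difference in share of the pre-pro-B form ranged from 29.4 to 99.3 percentage points, with a median of 62.2. Of the 30 genes, 18 had 2 listed transcripts and 12 had more, up to 7. Of the 21 further transcripts of those 12 genes, 10 were listed at 0 in both libraries and 7 reached 10% of their gene's sum in at least 1 library.

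**Figure D1:**
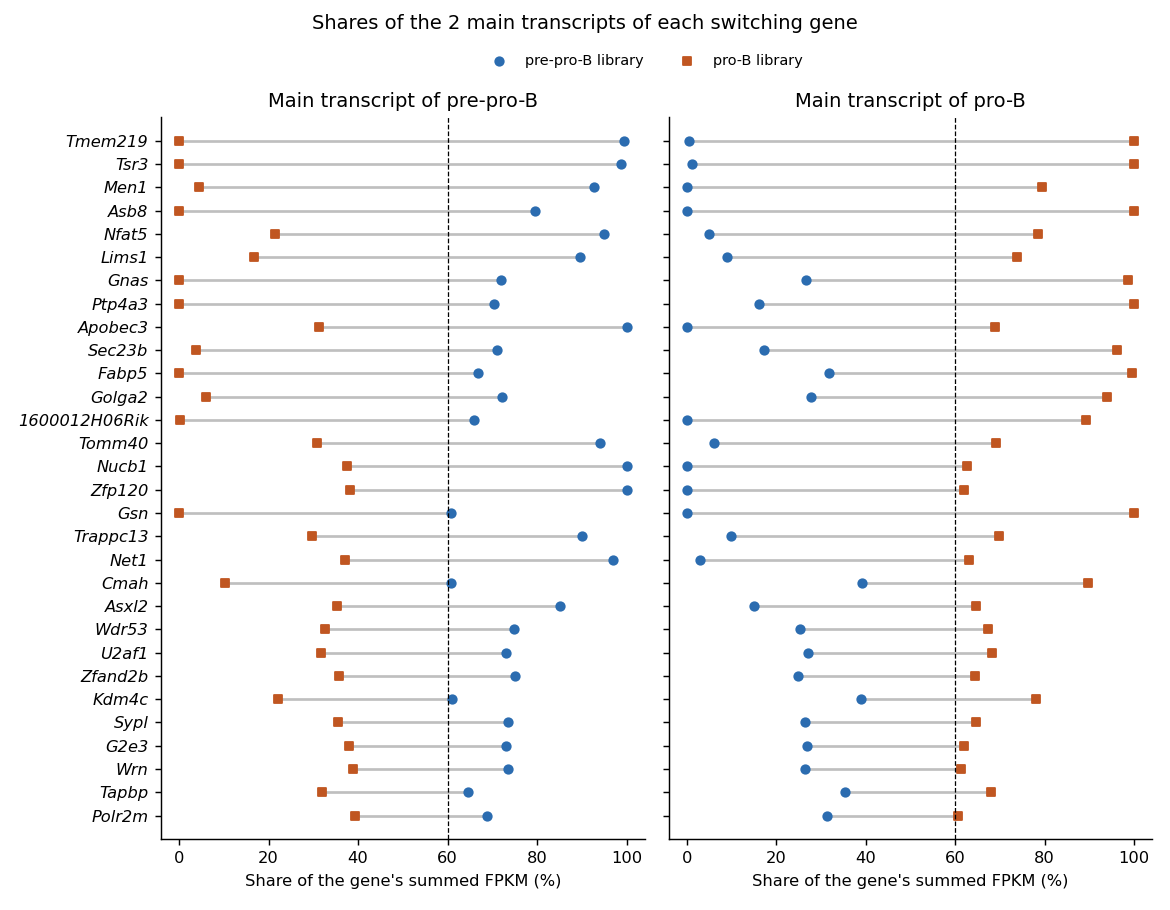
Share of each gene's summed FPKM (%, x axis) held by its pre-pro-B form (left) and its pro-B form (right) in the pre-pro-B library (circles) and the pro-B library (squares), for the 30 genes ordered by the difference in share of the pre-pro-B form. Tmem219 and Tsr3, at the top, lie at the ends of the scale in both panels, and Polr2m, at the bottom, differed by 29.4 percentage points, with the 60% limit as a dashed line.

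Switching was more frequent among genes with low levels. Among genes with several transcripts whose smaller gene total was under 5 FPKM, 221 of 1141, or 19.4%, met the share rule. From 5 to under 10 FPKM this was 22 of 398 genes, or 5.53%, and from 10 to under 20 FPKM it was 18 of 437, or 4.12%. From 20 to under 50 FPKM it was 9 of 473, or 1.9%, and at 50 FPKM or more it was 3 of 197, or 1.52%. The 3 genes of the highest class were Fabp5, Gnas and Polr2m. With the nominal depth of 90 M reads of 97 bases per library, the totals of the 30 genes correspond to 89.1 to 1607 reads over any 1 base in pre-pro-B and 92.1 to 1513 in pro-B. Only those reads that touch an exon or junction found in 1 form alone tell the forms apart, and Cuffdiff divides the rest between the transcripts by likelihood.

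At the limit itself, small differences in share decided membership. Just inside were Gsn, Cmah and Polr2m, each with a smaller main share of 60.7%. Just outside were Usp33 with 59.7%, Prkacb with 59.6% and Rnh1 with 58.8%. Usp33, a deubiquitinase, had its pre-pro-B form at 68.8% in pre-pro-B and its pro-B form at 59.7% in pro-B. Prkacb, a catalytic subunit of protein kinase A, had 60.1% and 59.6%, and Rnh1, the ribonuclease inhibitor, 60.3% and 58.8%.

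**Figure D2:**
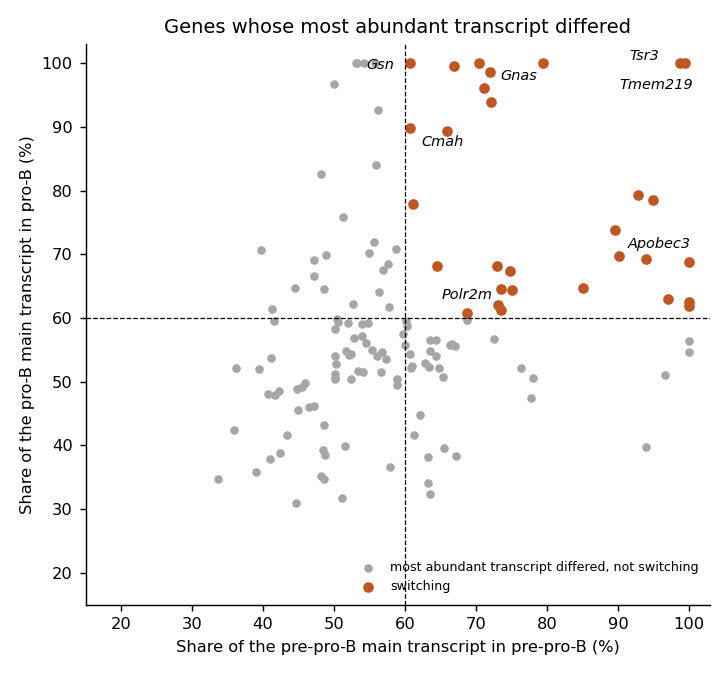
Share of the pre-pro-B form in the pre-pro-B library (%, x axis) against the share of the pro-B form in the pro-B library (%, y axis) for the 143 genes whose most abundant transcript differed. The 30 switching genes lie above both 60% lines (dashed), 3 of them, Gsn, Cmah and Polr2m, at 60.7% on one axis, and the other 113 genes lie below at least 1 line.

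The deposited tables give a 95% confidence interval for each FPKM, and these intervals were wide. Their dispersion was taken over both libraries, 1 per cell type, so they are not an error measured between replicates. In no switching gene was the lower limit of the leading form above the upper limit of every other form in both libraries. Such a separation held in 11.4% of the 1107 genes, most of which had the same leading form in both libraries. In pre-pro-B, counted without regard to pro-B, it held for 3 of the 30, Apobec3, Nucb1 and Zfp120. The share of all genes that could have switched was 15.4%. In pro-B, counted without regard to pre-pro-B, it held for 6, Asb8, Fabp5, Gsn, Ptp4a3, Tmem219 and Tsr3, beside 17.6%. Both background shares include the 11.4% of genes where it held in both libraries. Membership rests on the same FPKM, so these counts beside the background are not a result about the members. The same transcript can also be compared between libraries. The lower limit of the pre-pro-B form in pre-pro-B was above its upper limit in pro-B in 7 of the 30 genes, beside 0.994% of all genes. The lower limit of the pro-B form in pro-B was above its upper limit in pre-pro-B in 8 of the 30, also beside 0.994%. The members were selected on these same FPKM and are part of the 11 genes behind each 0.994%, so nothing is read from these counts beside the background. Both held in 4 genes, Asb8, Gsn, Tmem219 and Tsr3, and neither held in 19. Of the 162 FPKM of the 30 genes, 10 had an upper limit below the estimate itself, all at 0.0297 FPKM or less, so limits near 0 are not error bars in the usual sense.

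**Figure D3:**
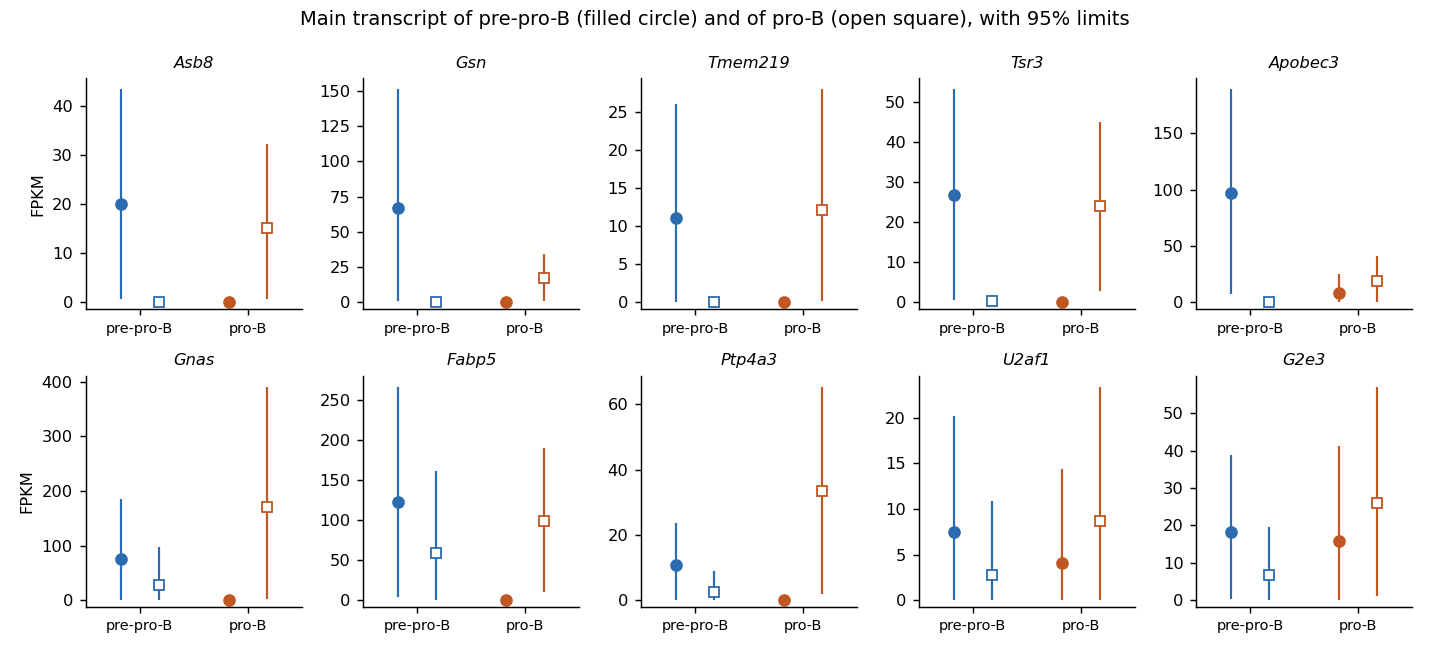
FPKM (y axes, a scale for each gene) of the pre-pro-B form (filled circles) and the pro-B form (open squares) in the 2 libraries for 10 of the switching genes, with the deposited 95% limits as bars. In Asb8, Gsn, Tmem219 and Tsr3 each form is near 0 in the library where the other leads, while in U2af1 and G2e3 all bars overlap.

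Asb8, which carries ankyrin repeats and a SOCS box and belongs to a family of ubiquitin ligase adaptors, had its pre-pro-B form NM_001170710 at 19.96 FPKM (95% limits 0.599 to 43.3) in pre-pro-B and listed at 0 in pro-B. Its pro-B form NM_001170711 was listed at 0 in pre-pro-B and was at 15.2 FPKM (0.628 to 32.1) in pro-B. The 2 forms differ by 6 bases in a length of about 2.2 kb, and a further form, NM_030121, was at 5.16 FPKM in pre-pro-B alone. At the nominal depth, 3 fragments on a transcript of this length would be 0.0154 FPKM, which is the level a count of 0 allows.

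Tsr3, an enzyme of ribosomal RNA modification, had NM_026676 at 26.9 FPKM (0.596 to 53.3) in pre-pro-B and 0.00512 FPKM in pro-B. Its other form, NM_001163718, was at 0.337 FPKM (upper limit 0.978) in pre-pro-B and 24.1 FPKM (2.87 to 45.2) in pro-B. The forms are 1193 and 1172 bases long, and the gene total was 1.13-fold lower in pro-B.

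Tmem219, a transmembrane protein, showed the largest difference of share. NM_028389 was at 11.1 FPKM (0.0753 to 26.0) in pre-pro-B and 0.00715 FPKM in pro-B, and NM_026827 at 0.0691 FPKM (upper limit 0.113) and 12.1 FPKM (0.138 to 28.0). The forms differ by 3 bases, 941 against 944. In the GENCODE annotation of mm9, Tmem219 lies at chr7:134029685-134066429 on the minus strand, and the single annotated difference of that length is a pair of adjacent acceptor sites inside the coding region, at chr7:134040739-134040741. Zfand2b, a zinc finger protein that associates with the proteasome, lies at chr1:75165220-75168203 on the plus strand and has forms of 1200 and 1203 bases. It has the same kind of annotated difference, outside the annotated coding region, at chr1:75165405-75165407. Both are written on the strand of the gene, 5′ to 3′, with the optional 3 bases in capitals and the intron to the left. In both, the letters CAG stand next to another cag, so the splice can fall before or after the repeat.
Tmem219 acceptors, chr7:134040719-134040761, minus strand: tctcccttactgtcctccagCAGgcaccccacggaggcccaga
Zfand2b acceptors, chr1:75165393-75165419, plus strand: tcttccccgcagCAGgccccgcacggc

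In Zfand2b the exchange was smaller. The shorter NM_001159906 was at 10.7 FPKM (0.116 to 25.4) in pre-pro-B and 5.30 FPKM (0 to 16.2) in pro-B. The longer NM_001159905 was at 3.55 FPKM (0 to 12.5) and 9.56 FPKM (0.0292 to 24.2). In both genes the longer form led in pro-B, and the intervals of Zfand2b overlapped throughout. Lengths alone tie the RefSeq transcripts to these sites, since the annotation carries no RefSeq names.

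Gsn, gelsolin, severs and caps actin filaments. It had 4 listed transcripts, of which 3 were found in pre-pro-B. NM_001206369 was at 66.6 FPKM (1.32 to 151) in pre-pro-B and listed at 0 in pro-B. NM_146120 was listed at 0 in pre-pro-B and was at 17.2 FPKM (0.940 to 34.3) in pro-B. The other forms, NM_001206368 and NM_001206367, were at 29.1 FPKM (0 to 84.7) and 14.04 FPKM (0 to 56.2) in pre-pro-B. In pro-B they were at 0.00865 and 0 FPKM. Every transcript above 0 in pre-pro-B was thus near 0 in pro-B, where the remaining one held nearly the whole sum. The total was 6.36-fold lower in pro-B, the largest difference of a total among the 30.

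Genes of adhesion and signalling included 4 more members. Lims1, an adaptor that links integrins to the actin cytoskeleton, had NM_201242 at 77.3 FPKM (3.29 to 154) in pre-pro-B and 4.53 FPKM (0 to 16.1) in pro-B, and NM_026148 at 7.89 FPKM (0 to 35.7) and 19.96 FPKM (0.496 to 42.5). Net1, an exchange factor for RhoA, had NM_001047159 at 61.0 FPKM (6.48 to 117) and 6.24 FPKM (0 to 17.4), and NM_019671 at 1.87 FPKM (0 to 10.8) and 10.6 FPKM (0.194 to 23.6). Totals of both genes were lower in pro-B, 3.19-fold for Lims1 and 3.73-fold for Net1, although the pro-B form itself was higher there.

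Gnas encodes the stimulatory G protein alpha subunit, whose long and short forms are known to differ by a small coding exon. Of its 7 listed transcripts, 4 were at 0 in both libraries. NM_001077510, of 1704 bases, was at 75.3 FPKM (0.770 to 186) in pre-pro-B and 0.0297 FPKM in pro-B. NM_201616, of 1746 bases, was at 28.0 FPKM (0 to 98.1) in pre-pro-B and 171 FPKM (2.26 to 391) in pro-B. The longer form thus held 26.8% of the sum in pre-pro-B and 98.6% in pro-B, and the total was 1.66-fold higher in pro-B. The 42 bases between them equal an annotated coding exon of 45 bases at chr2:174162248-174162292 less a 3-base acceptor step at chr2:174167151-174167153, a match that was looked for after the values were seen. The exon is printed in capitals, with 10 intron bases on each side, and below it the acceptor step in capitals, both on the plus strand of mm9.
Gnas exon, chr2:174162238-174162302: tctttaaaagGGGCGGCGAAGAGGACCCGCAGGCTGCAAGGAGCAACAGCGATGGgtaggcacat
Gnas acceptor step, chr2:174167131-174167173: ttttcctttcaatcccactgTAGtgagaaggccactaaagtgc

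Ptp4a3, a phosphatase of the PRL family, was the only member whose total was at least 2-fold higher in pro-B, with 15.1 and 33.6 FPKM. NM_001166389 was at 10.6 FPKM (0.167 to 23.6) in pre-pro-B and 0.000344 FPKM in pro-B, and NM_008975 at 2.42 FPKM (0 to 9.06) and 33.6 FPKM (1.94 to 65.4). Cmah, the hydroxylase that makes N-glycolylneuraminic acid, had NM_001111110 at 48.2 FPKM (0.387 to 109) in pre-pro-B and 5.02 FPKM (0 to 19.9) in pro-B. Its other form, NM_007717, was at 31.2 FPKM (0.0330 to 84.4) and 44.0 FPKM (3.38 to 88.7), so the pre-pro-B form differed 9.60-fold and the pro-B form 1.41-fold.

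In both genes the lengths matched annotated models that start at different places. The Cmah models of 9727 and 9397 bases share 15 exons and start at chr13:24419289 and chr13:24506992, 87703 bases apart on the plus strand. The Ptp4a3 models of 3539 and 3608 bases share 5 exons and start at chr15:73553575 and chr15:73578456, 24881 bases apart on the plus strand. In each gene the form that led in pro-B was the one with the start nearer the 3′ end. The 200 bases before each start in mm9 are printed below. Capitals mark CANNTG, the letters of the E-box that E2a-class factors bind, and CCCNNGGG, the letters at the core of Ebf1 sites; both read the same on either strand.
Cmah pre-pro-B form, chr13:24419089-24419288: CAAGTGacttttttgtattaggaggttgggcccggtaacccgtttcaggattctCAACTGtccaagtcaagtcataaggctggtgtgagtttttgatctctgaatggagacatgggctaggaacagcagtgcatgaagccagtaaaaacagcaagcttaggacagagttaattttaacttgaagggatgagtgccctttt
Cmah pro-B form, chr13:24506792-24506991: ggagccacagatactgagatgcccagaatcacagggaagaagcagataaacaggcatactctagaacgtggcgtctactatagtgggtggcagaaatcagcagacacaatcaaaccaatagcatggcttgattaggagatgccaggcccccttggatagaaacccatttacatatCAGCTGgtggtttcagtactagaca
Ptp4a3 pre-pro-B form, chr15:73553375-73553574: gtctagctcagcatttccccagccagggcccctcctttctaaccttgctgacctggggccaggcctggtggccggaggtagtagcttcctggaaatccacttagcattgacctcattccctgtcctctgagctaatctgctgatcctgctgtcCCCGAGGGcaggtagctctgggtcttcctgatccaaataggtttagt
Ptp4a3 pro-B form, chr15:73578256-73578455: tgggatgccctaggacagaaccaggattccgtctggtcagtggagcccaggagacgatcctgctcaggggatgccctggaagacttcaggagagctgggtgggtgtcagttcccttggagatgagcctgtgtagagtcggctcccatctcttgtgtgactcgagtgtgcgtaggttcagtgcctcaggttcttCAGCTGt

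CANNTG was found 2 times before the pre-pro-B start of Cmah and 1 time before its pro-B start, and in Ptp4a3 only before the pro-B start. CCCNNGGG was found only before the pre-pro-B start of Ptp4a3, and the letters do not overlap. Among 32851 RefSeq promoter windows of the same 200 bases (GRCm38.p6), 58.2% held CANNTG and 9.91% held CCCNNGGG. These are matches of letters in a window, and no binding was measured.

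Apobec3, a cytidine deaminase that restricts retroviruses, had NM_030255 at 96.7 FPKM (7.496 to 189) in pre-pro-B and 8.55 FPKM (0 to 24.9) in pro-B. NM_001160415 was listed at 0 in pre-pro-B and was at 18.9 FPKM (0.329 to 41.2) in pro-B. Both forms were found in pro-B, with shares of 31.2% and 68.8%, and the total was 3.53-fold lower there. The forms are 2360 and 2459 bases long and match annotated models of those lengths at chr15:79722838-79738859, plus strand, which differ by a single coding exon of 99 bases. The longer form, which led in pro-B, includes it. The exon is printed in capitals with 10 intron bases on each side.
Apobec3 exon, chr15:79729440-79729558: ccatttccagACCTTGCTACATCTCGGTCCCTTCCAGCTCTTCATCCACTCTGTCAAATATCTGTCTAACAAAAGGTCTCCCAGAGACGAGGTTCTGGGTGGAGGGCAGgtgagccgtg

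Fabp5, which binds fatty acids in the cytoplasm, had the highest pre-pro-B total of the 30, 184 FPKM, and a pro-B total of 99.3 FPKM. NM_001272097 was at 123 FPKM (3.32 to 267) in pre-pro-B and 0.00904 FPKM in pro-B, under the 0.0351 FPKM that 3 fragments would give. NM_010634 was at 58.6 FPKM (0 to 162) and 98.9 FPKM (9.54 to 191). The forms are 950 and 953 bases long. A 3-base difference also separates the forms of Tapbp, tapasin, which loads peptides onto MHC class I. NM_009318 was at 17.6 FPKM (0.413 to 38.2) in pre-pro-B and 6.35 FPKM (0 to 18.1) in pro-B, and NM_001025313 at 9.70 FPKM (0.0138 to 26.2) and 13.6 FPKM (0.303 to 29.9). No annotated splice event of that length was found in either gene.

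Several members act in the secretory pathway. Golga2, the cis-Golgi matrix protein GM130, had NM_001080968 at 10.6 FPKM (0.315 to 22.02) in pre-pro-B and 0.944 FPKM (0 to 4.46) in pro-B, and NM_133852 at 4.10 FPKM (0 to 11.6) and 14.5 FPKM (1.03 to 28.4). The total was nearly the same, 1.05-fold higher in pro-B. The lengths of 4361 and 4442 bases match 4 models at chr2:32143773-32163441, plus strand. A coding exon of 81 bases, printed here in capitals, is in the longer models and not in the shorter ones. Golga2 has another annotated skipped coding exon of 81 bases, at chr2:32153274-32153354, which all 4 of these models hold. The tie between the RefSeq transcripts and the models is by length alone.
Golga2 exon, chr2:32148825-32148925: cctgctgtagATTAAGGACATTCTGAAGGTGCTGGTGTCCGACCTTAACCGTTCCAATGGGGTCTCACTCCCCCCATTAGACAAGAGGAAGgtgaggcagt

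Sec23b, a coat protein of COPII vesicles, had NM_001252544 at 17.6 FPKM (0.299 to 40.7) in pre-pro-B and 1.55 FPKM (0 to 9.08) in pro-B, and NM_019787 at 4.26 FPKM (0 to 15.9) and 38.7 FPKM (0.520 to 87.6). Trappc13, a subunit of the TRAPP tethering complex, had NM_001093760 at 36.0 FPKM (1.06 to 74.1) and 7.93 FPKM (0 to 24.6), and NM_001093759 at 3.96 FPKM (0 to 18.1) and 18.6 FPKM (0.150 to 43.8). Nucb1, a calcium-binding protein of the Golgi, had NM_001163662 at 29.5 FPKM (2.23 to 56.8) and 4.85 FPKM (0 to 13.2), and NM_008749 at 0.00204 and 8.12 FPKM (upper limit 18.5). Sec23b and Trappc13 totals differed by less than 2-fold, and the Nucb1 total was 2.27-fold lower in pro-B. Sypl, a synaptophysin-like vesicle protein, had NM_198710 at 10.5 and 7.84 FPKM and NM_013635 at 3.79 and 14.3 FPKM, so mainly its pro-B form differed.

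Nuclear proteins made up another group. Men1, menin, a tumour suppressor that joins MLL methyltransferase complexes, had NM_001168489 at 15.9 FPKM (0.683 to 32.3) in pre-pro-B and 1.09 FPKM (0 to 6.08) in pro-B, and NM_001168488 at 0.00337 and 19.4 FPKM (0.666 to 40.4). Its further form NM_008583 was at 1.22 and 3.98 FPKM. Nfat5, the transcription factor of the osmotic stress response, had NM_018823 at 16.8 FPKM (1.19 to 32.7) and 2.86 FPKM (0 to 8.94), and NM_133957 at 0.898 FPKM (0 to 4.42) and 10.5 FPKM (0.430 to 21.7). Both genes were among the 5 with the largest difference of share, and their totals differed 1.43-fold and 1.32-fold.

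Polr2m, a protein that associates with RNA polymerase II, had the smallest difference of share. NM_178602 was at 72.7 FPKM (2.70 to 155) in pre-pro-B and 42.9 FPKM (0.150 to 109) in pro-B, and NM_001164793 at 33.1 FPKM (0.0487 to 91.0) and 66.3 FPKM (1.26 to 146). Zfp120, a zinc finger protein, had NM_181266 at 15.2 FPKM (0.763 to 30.3) and 5.88 FPKM (0 to 15.9), and NM_023266 at 0.000922 and 9.55 FPKM (0.145 to 21.7). Its forms differ by 64 bases, the length of an annotated coding exon at chr2:149945301-149945364.

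Of the chromatin regulators, 20 of the listed genes could have switched and 2 did, Asxl2 and Kdm4c. Beside the 2.71% of all 1107 genes, 2 of 20 is not a result about this list. Asxl2, a Polycomb-associated protein, had NM_001270988 at 17.2 FPKM (0.509 to 34.7) in pre-pro-B and 8.39 FPKM (0.0273 to 22.2) in pro-B, and NM_172421 at 3.03 FPKM (0 to 10.8) and 15.4 FPKM (0.555 to 33.3). The longer form led in pre-pro-B here, by 144 bases, the length of an annotated coding exon at chr12:3476026-3476169. Kdm4c, a demethylase of histone H3 lysine 9, had NM_144787 at 14.8 FPKM (0.403 to 32.4) and 2.74 FPKM (0 to 8.80), and NM_001172095 at 9.41 FPKM (0.0566 to 24.4) and 9.70 FPKM (0.306 to 20.5), so its pro-B form was at about the same level in both libraries. Ncor1 had another leading transcript in each library without reaching the limit. The list had 79 genes with a total of at least 1 FPKM in both libraries. Of these totals, 11 were lower in pro-B by 2-fold or more and 6 were higher, beside 13.8% lower and 11.9% higher among all 8567 such genes, and the median log2 ratio was -0.11.

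Of the splicing and polyadenylation factors, 24 could have switched and 1 did. Beside the 2.71% of all 1107 genes, this is not a result about the list. The 1 was U2af1, the small subunit of the factor that recognises the 3′ splice site. NM_001163769 was at 7.44 FPKM (0 to 20.1) in pre-pro-B and 4.04 FPKM (0 to 14.4) in pro-B, and NM_024187 at 2.76 FPKM (0 to 10.9) and 8.68 FPKM (0 to 23.4). All 4 intervals start at 0 and overlap. Both transcripts are 907 bases long and match the annotated pair of models at chr17:31784027-31795699, minus strand, which differ by alternative coding exons of 67 bases that are the same at 44 positions, or 65.7%. Which RefSeq transcript carries which exon cannot be read from lengths. The exons are in capitals, with 10 intron bases on each side.
U2af1 3′ exon of the pair, chr17:31788581-31788667: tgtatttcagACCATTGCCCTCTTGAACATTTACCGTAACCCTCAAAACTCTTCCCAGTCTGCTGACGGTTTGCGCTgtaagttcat
U2af1 5′ exon of the pair, chr17:31789437-31789523: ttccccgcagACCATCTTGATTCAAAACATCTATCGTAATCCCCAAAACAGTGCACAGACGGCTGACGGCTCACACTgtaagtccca

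Cstf3, a cleavage stimulation factor, and Srsf5, an SR protein, had another leading transcript in each library without reaching the limit. In the whole list, 59 genes had a total of at least 1 FPKM in both libraries. In pro-B, 4 of these totals were lower by 2-fold or more, those of Cpsf3, Hnrnpa1, Mbnl2 and Ptbp3, and 2 were higher, those of Hnrnpa3 and Hnrnpll. Among all 8567 genes with such totals, 13.8% were lower and 11.9% higher by that much. The median log2 ratio of totals, pro-B over pre-pro-B, was 0.23 for the list and -0.09 for all genes. Of the hematopoietic regulators, 21 could have switched and 0 did, and Foxp1, Pou2f1, Runx1 and Tcf4 had another leading transcript without reaching the limit. With 2.71% of all 1107 genes switching, 0 of 21 is not a result about this list. Of its 105 measured genes, 79 had a total of at least 1 FPKM in both libraries. Of those 79 totals, 30 were lower and 19 higher in pro-B by 2-fold or more, beside the 13.8% and 11.9% of all such genes, with a median log2 ratio of -0.57.

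Among the remaining members, G2e3, a ubiquitin ligase, had NM_001015099 at 18.2 FPKM (0.322 to 38.7) in pre-pro-B and 15.9 FPKM (0.0215 to 41.3) in pro-B, and NM_001167963 at 6.71 FPKM (0 to 19.5) and 26.0 FPKM (1.12 to 57.1). The forms differ by 69 bases, the length of an annotated coding exon at chr12:52464939-52465007, and the longer form led in pro-B. Wrn, a RecQ helicase of DNA repair, had NM_011721 at 21.1 FPKM (1.09 to 43.4) and 11.96 FPKM (0.0468 to 30.3), and NM_001122822 at 7.62 FPKM (0.00614 to 21.9) and 18.9 FPKM (0.543 to 41.9). In both genes all intervals overlapped.

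Tomm40, the channel of mitochondrial protein import, had NM_016871 at 12.01 FPKM (0.149 to 26.7) in pre-pro-B and 3.25 FPKM (0 to 10.8) in pro-B. Its NM_001109748 was at 0.772 FPKM (0 to 4.21) and 7.30 FPKM (0 to 18.2). Wdr53, a WD repeat protein, had NM_026898 at 9.97 FPKM (0.0888 to 24.2) and 3.59 FPKM (0 to 11.9). Its NM_001185162 was at 3.36 FPKM (0 to 12.2) and 7.42 FPKM (0 to 19.5). In Tomm40 and Wdr53 all intervals overlapped. 1600012H06Rik had NM_026451 at 11.8 and 0.0149 FPKM and NM_001083880 at 0.00879 and 13.0 FPKM, and all 4 lower limits were 0. A further form was at 6.09 and 1.55 FPKM, or 34.1% and 10.6% of the sum. The leading forms of 1600012H06Rik differ by 5 bases.

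Gene totals were close in most members. The total was within 2-fold in 24 of the 30 genes, or 80%, and in 82.7% of the other genes that could have switched. It was at least 2-fold lower in pro-B in 5 genes, Gsn, Net1, Apobec3, Lims1 and Nucb1, which is 16.7% beside 8.76% of all 1107. It was at least 2-fold higher in 1 gene, Ptp4a3, or 3.33% beside 8.58%. The median log2 ratio of totals was -0.23 for the 30 genes and -0.05 for all 1107. With 1 library each, a difference of a few genes from the background is not a result about the members.

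**Figure D4:**
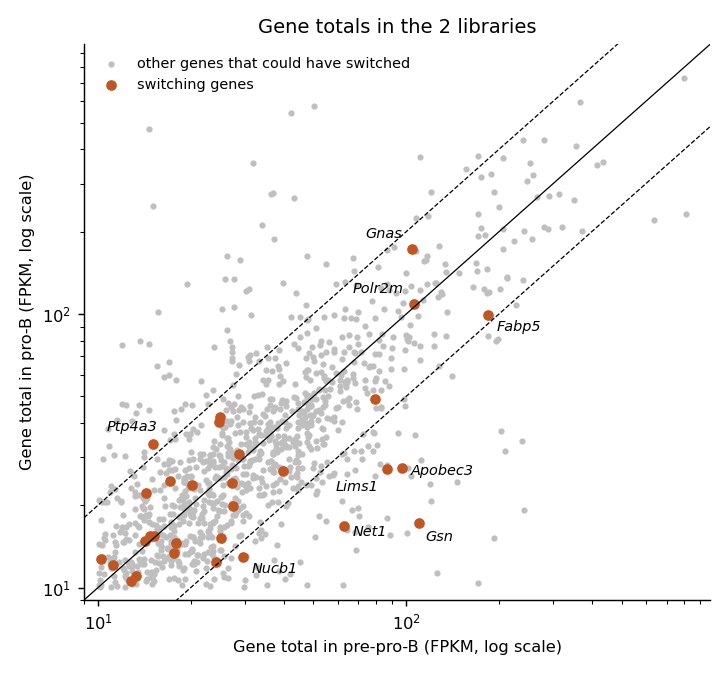
Gene totals in FPKM (log scales) in pre-pro-B (x axis) and pro-B (y axis) for the 1107 genes that could have switched, with the 30 switching genes in orange, the line of equality and dashed lines at 2-fold. Gsn, Net1, Apobec3, Lims1 and Nucb1 lie below the lower dashed line, Ptp4a3 lies above the upper one, and 24 switching genes lie between them.

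The forms of the switching genes were close in length. The median difference was 52 bases over the 30 genes, from 0 in U2af1 to 330 in Cmah. It was 127 bases over the 113 genes whose leading transcript differed without reaching the limit, and 119 bases over all 1077 other genes, where the 2 most abundant transcripts were compared if the leading one was shared. A difference of at most 100 bases was found in 25 of the 30 genes, or 83.3%, in 45.1% of the 113 and in 44.5% of the 1077. A difference of at most 3 bases was found in 5 genes, Fabp5, Tapbp, Tmem219, U2af1 and Zfand2b, or 16.7%, beside 7.96% and 6.31%. A difference of over 1000 bases was found in none of the 30, beside 12.4% and 14.2%. Differences were a multiple of 3 bases in 18 of the 30, or 60%, beside 48.7% and 53.0%. The pro-B form was the longer one in 17 genes, the shorter in 12 and of equal length in 1.

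**Figure D5:**
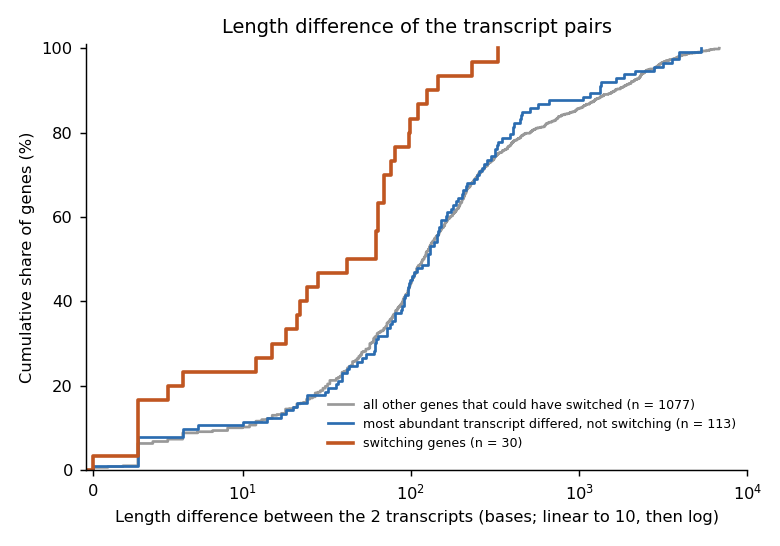
Cumulative share of genes (%, y axis) by the length difference of their transcript pair in bases (x axis, linear to 10 and logarithmic beyond) for the 30 switching genes, the 113 genes with another leading transcript that stayed short of the limit, and all 1077 other genes that could have switched. The switching genes lie to the left, with a median of 52 bases against 127 and 119.

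Length also enters FPKM, and forms that share nearly all bases are told apart by few reads, so these values stand beside the switches as a measured property and their part in them was not tested. An annotated splice event of exactly the needed length was found in 9 of the 29 genes with unequal lengths, or 31.0%, close to the 33.6% and 32.6% of the comparison genes. Both lengths matched annotated models in 5 of the 30 genes, or 16.7%. This share was 10.8% of the 111 and 10.8% of the 1067 comparison genes found in the annotation. Of the 5 genes, 2, Cmah and Ptp4a3, had models that started at different positions. No such share was worked out for the other genes, so this is not a result about the members. In the RefSeq promoter windows, 26 of the 30 genes were found. Of these, 15, or 57.7%, had 2 or more listed starts, and in 10, or 38.5%, starts were over 1000 bases apart. The shares were 44.3% and 23.7% of 97 genes whose leading transcript differed short of the limit, and 41.5% and 21.9% of all 889 others. These are any starts listed for a gene, not those of its 2 forms. A difference of a few genes from the background is not a result about the members.

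Several forms were under the level that a count of 0 allows. The pro-B form was below 3 fragments in pre-pro-B in 7 genes, 3 of them listed at 0, and the pre-pro-B form was below 3 fragments in pro-B in 6 genes, 2 of them listed at 0. This held for at least 1 form in 11 genes and for both in 2. Such a value comes from the division of shared reads as well as from counting, so it is not shown that these transcripts were absent.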

How the data were processed

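Ribosomal RNA-depleted, strand-specific RNA libraries were sequenced to a nominal 90 M single-end reads of 97 bases, 1 library per cell type. The authors trimmed the reads, aligned them to mm9 with TopHat (1.5 in the submitters' processing notes) and estimated FPKM with Cuffdiff 2.1.1 on RefSeq transcripts with classic FPKM scaling, correction for multiply mapped reads and for sequence bias, and a dispersion taken over both libraries. The deposited FPKM and their 95% limits were used as they are. The deposited table of the authors' comparison also holds fold changes, p-values and q-values, which were not used.

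Of 30485 transcripts, the 26968 protein-coding ones were taken, and 26555 were given a gene name from a RefSeq table of GRCm38.p6, used for names only. Entries with status OK in both libraries were kept. Shares are of a gene's summed FPKM, without a pseudocount. Fragments were approximated as FPKM × length × nominal reads. Such floors cover counting error only. No test was possible with 1 library per group.

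Transcript structures came from GENCODE M1 on mm9, matched by transcript length, and sequences were read from the same genome. The script for switches was tested on simulated data. Tables were handled with pandas 2.3.3 and numpy 2.4.6 under Python 3.11.15, and figures drawn with matplotlib 3.10.9. The members, the gene lists and the rules were chosen with earlier results of these data known. All 30 members are named in the text, and 1 gene of the B lineage marker list is not reported here. The rule for those given in full took the 12 with the highest smaller total, the 3 largest rises and falls of the total, the 3 nearest the limit on each side, members of the lists, and the 5 largest changes of share, and other members were added after their values were seen. Alternatives were other limits for the share and the sum, shares weighted by length, a pseudocount, other scalings, other statuses, the X chromosome and the second deposited table.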

Additional observations from a re-analysis of the deposited data

How the results depend on the processing

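The number of switching genes followed the limits. It was 97 at a share of 50%, 10 at 70% and 2 at 80%, and 52 with a gene sum of 5 FPKM, 12 with 20 FPKM and 273 with any sum above 0. At a share of 70%, 8 genes had a total within 2-fold, the median change of share was -73.1 percentage points, 2 pro-B forms were below 3 fragments and 1 gene had different starts. With a sum of 20 FPKM, these were 10 genes, 1 form and 1 gene. The leading form's FPKM, in place of its lower limit, was above the upper limits of all other forms in both libraries in 8 genes. The count stayed between 27 and 32 with shares weighted by length (30 genes, 29 of them shared with the 30 reported), a pseudocount of 1 FPKM, any status, the X chromosome, or the second table. Gsn, 1600012H06Rik and Zfand2b no longer met the rule with the pseudocount, and Polr2m no longer did with shares weighted by length. FPKM summed per accession, an alternative chosen after seeing the data, also gave 30. TPM scaling left 23 totals within 2-fold. Leaving out a library was not possible, and no paired analysis was possible because each cell type has 1 library. Depth limits the forms below 3 fragments, and wide intervals limit the rest.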
